A study of Rattus norvegicus with 30 samples.

Results

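Fatty acid oxidation and ketogenesis in the liver were followed through 39 genes, measured on 30 one-colour microarrays under a diet with phenobarbital (PB), a barbiturate and a standard inducer of liver drug-metabolising enzymes. The genes were chosen by symbol: every non-control probe whose transcript accession maps to a listed rat gene was taken, which gave 43 of 30367 probes and 39 of 26912 genes or unnamed transcripts. Hadha, Acaa1a, Acaa1b and Acot2 had 2 probes each, and the probe with the higher mean over the 16 rat arrays stood for the gene. All livers came from male animals fed for 7 days. Chimeric mice, whose livers carry rat hepatocytes, received 1000 ppm PB (n = 7) or control diet (n = 7). CAR KO rats, which lack the constitutive androstane receptor encoded by Nr1i3, received 1000 ppm PB (n = 4) or control diet (n = 4), and so did Crl:CD(SD) rats, called SD rats here (n = 4 and n = 4). Replicates are labelled biological; the ages, the host mouse strain and the position of the deletion were not given in the sources used here. Livers of chimeric mice also hold host mouse cells, the probes were designed to rat transcripts, and the part of mouse RNA in the signal was not measured here. In whole-liver RNA, fewer cells of a type and less RNA per cell cannot be told apart.

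Levels are log2 of the scanner signal after subtraction of the array's 75th percentile, so that 0 is the signal below which 75% of the probes lie, and they are compared between arrays for one probe and never between probes. All 39 genes entered each of the comparisons. All but Fgf21 were well above background on every array; Fgf21 was so on 6 of 7 arrays in each chimeric group and on all rat arrays. A gene is said to have passed the test where limma's moderated test gave a Benjamini-Hochberg adjusted p under 0.05 over all genes tested, and errors of log2 differences are standard errors (SE).

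Between 50.8% and 58.1% of the probes were well above background on chimeric arrays, between 60.3% and 67.0% on CAR KO arrays and between 58.7% and 64.6% on SD arrays. Each of the 14 hepatocyte markers was well above background on at least 1 array of each group. The summed linear level of 8 macrophage markers was 14.7 to 30.5 times the 75th percentile signal on chimeric arrays, 29.0 to 62.6 on CAR KO arrays and 53.0 to 61.3 on SD arrays. Each rat model lay on 1 slide, with the control diet in the first row of arrays and PB in the second, so row and diet cannot be told apart within a rat model, and slide and model cannot be told apart between models. The 7 chimeric control arrays shared a slide with chimeric PB 1, and chimeric PB 2 to 7 lay on another. Chimeric PB 4, control 2 and control 4 stood apart from the other chimeric arrays on the second principal component, which held 27.4% of the variance. The level of Nr1i3 averaged 1.12 ± 0.299 in CAR KO control livers and 1.17 ± 0.495 in SD control livers (SD, n = 4 each); since the deleted part is not known here, this probe does not check the label. Cyp2b2, a cytochrome P450 that PB induces, differed between PB and control diet by 5.81 log2 units in chimeric mice and 4.03 in SD rats, and by -0.09 in CAR KO rats (adjusted p = 0.803).

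Fatty acids are activated to acyl-CoA, carried into mitochondria as carnitine esters and shortened by cycles of dehydrogenation, hydration, dehydrogenation and thiolysis, with electrons passed on through the electron transfer flavoprotein. Peroxisomes run a related cycle on very long and branched chains. In the fasted liver the acetyl-CoA is turned into ketone bodies for export, and many genes of the pathway are known targets of the fatty acid receptor PPAR-alpha, which binds DNA with RXR at direct repeats.

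Promoter sequences of 300 bases (250 before and 50 after the gene start) were present for 36 of the 39 genes in the RefSeq table for GRCr8, and not for Acadl, Decr1 and Acaa2. Both strands were searched for the PPAR and RXR type direct repeat, 2 copies of AGGTCA separated by 1 base of any kind, with up to 2 mismatches in its 12 fixed bases, and for the exact single copy AGGTCA, which overlaps the repeat. The repeat was matched in 6 of 36 promoters (16.7%), those of Slc25a20, Crat, Fabp1, Acadvl, Echs1 and Etfa, against 1263 of 33469 promoters in the table (3.77%). The exact single copy was in 7 of 36 (19.4%), against 5415 of 33469 (16.2%). A match describes the letters and is not a shown binding site. Acadvl and Slc25a20, which were higher on PB in chimeric mice, and Crat, which was lower there, are printed with the matched 13 bases in capitals, together with Fgf21, which fell in SD rats and had no match. They lie at chr10:55236656-55236955 (minus strand) for Acadvl, chr8:118243323-118243622 (plus strand) for Slc25a20, chr3:34087050-34087349 (minus strand) for Crat and chr1:105221327-105221626 (minus strand) for Fgf21. The match has 1 mismatch in Acadvl and 2 mismatches each in Slc25a20 and Crat. Each sequence is written 5′ to 3′ on the strand of its gene:
Acadvl: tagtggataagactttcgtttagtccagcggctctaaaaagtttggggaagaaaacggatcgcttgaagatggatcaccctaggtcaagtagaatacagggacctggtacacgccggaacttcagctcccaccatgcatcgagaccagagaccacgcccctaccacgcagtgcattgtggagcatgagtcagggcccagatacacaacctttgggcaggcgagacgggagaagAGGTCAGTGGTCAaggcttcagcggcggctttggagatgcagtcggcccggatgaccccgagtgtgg
Slc25a20: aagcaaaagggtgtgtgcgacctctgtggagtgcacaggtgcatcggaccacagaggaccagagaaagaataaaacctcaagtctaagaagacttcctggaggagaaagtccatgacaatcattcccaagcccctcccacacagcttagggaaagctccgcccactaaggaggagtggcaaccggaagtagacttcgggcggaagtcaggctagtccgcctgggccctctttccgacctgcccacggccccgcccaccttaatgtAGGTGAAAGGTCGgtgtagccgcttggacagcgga
Crat: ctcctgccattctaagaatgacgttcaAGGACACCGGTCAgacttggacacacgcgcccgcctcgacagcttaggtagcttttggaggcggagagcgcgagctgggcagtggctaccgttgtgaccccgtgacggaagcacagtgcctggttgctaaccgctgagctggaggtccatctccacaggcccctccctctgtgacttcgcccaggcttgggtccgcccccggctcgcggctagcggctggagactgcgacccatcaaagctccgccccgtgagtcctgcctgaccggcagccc
Fgf21: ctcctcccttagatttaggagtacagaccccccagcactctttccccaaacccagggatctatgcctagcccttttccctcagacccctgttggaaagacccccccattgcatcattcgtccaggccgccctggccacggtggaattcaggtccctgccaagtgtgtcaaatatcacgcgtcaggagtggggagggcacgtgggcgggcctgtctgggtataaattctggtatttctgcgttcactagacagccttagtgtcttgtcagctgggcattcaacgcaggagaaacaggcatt

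In livers of chimeric mice, 9 of the 39 genes were higher on PB and 1 was lower. They spanned the carnitine shuttle, activation, the mitochondrial acyl-CoA dehydrogenases and the peroxisomal cycle. Among all 14445 genes tested, 42.7% passed, 19.3% higher and 23.4% lower, so the 10 of 39 is a smaller share than that of all genes. Of the 39 differences 26 lay above zero, with a median of 0.157 against 0.0641 over all genes tested. Only Acaa1b and Slc25a20 had no overlap between the arrays of the groups, both higher; of all genes 4.98% were higher and 7.68% lower in that way.

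**Figure D1:**
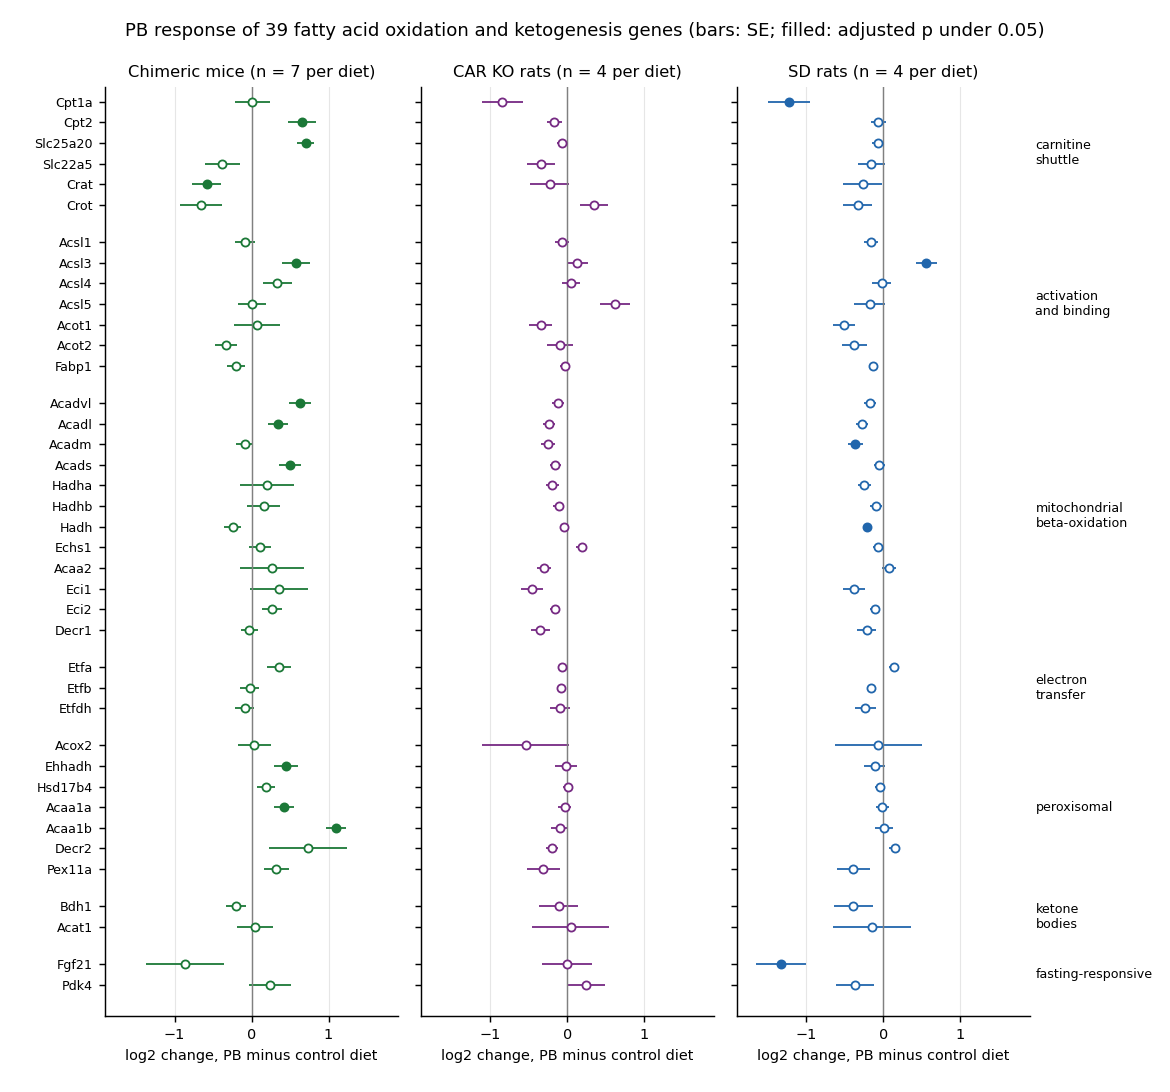
Difference between PB and control diet (log2, horizontal axis) for each of the 39 genes, grouped by role, in chimeric mice, CAR KO rats and SD rats; filled points passed the test at an adjusted p under 0.05 and bars are standard errors. Acaa1b stands at 1.10 in chimeric mice, while Cpt1a and Fgf21 stand at -1.23 and -1.33 in SD rats.

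In the carnitine shuttle, Slc25a20, the translocase that exchanges acylcarnitine for carnitine across the inner mitochondrial membrane, had levels of 3.13, 3.67 and 3.79 (lowest, median and highest) on PB, against 2.77, 2.90 and 3.09 on control diet. The lowest PB array lay just above the highest control array. The difference was 0.70 ± 0.109 (adjusted p = 0.000157). Cpt2, which turns acylcarnitine back into acyl-CoA inside the mitochondrion, had levels of 4.49, 4.98 and 5.36 on PB, against 3.81, 4.24 and 4.85 on control diet, a difference of 0.66 ± 0.182 (adjusted p = 0.00887). Its groups overlapped, although the PB median exceeded the highest control. Crat, the carnitine acetyltransferase for short chains, went the other way, with levels of 3.24, 4.27 and 4.57 on PB against 4.46, 4.72 and 4.79 on control diet and a difference of -0.58 ± 0.191 (adjusted p = 0.0222). Cpt1a, the liver carnitine palmitoyltransferase that controls entry into mitochondria, had levels of 1.12, 1.93 and 3.11 on PB against 1.71, 2.05 and 2.33 on control diet. Its difference was 0.01 ± 0.228 (adjusted p = 0.986), with a 95% interval of -0.48 to 0.49, and the PB arrays spread to both sides of the controls. Crot, the peroxisomal carnitine octanoyltransferase, did not pass (-0.65, adjusted p = 0.0657).

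Of the 7 genes for activation, hydrolysis and binding, Acsl3 passed, a long-chain acyl-CoA synthetase of the endoplasmic reticulum and lipid droplets. Its levels were 0.38, 1.17 and 1.55 on PB, against 0.16, 0.42 and 0.78 on control diet. The groups overlapped at their lower end, and the difference was 0.58 ± 0.183 (adjusted p = 0.019). Acsl4 (0.34, adjusted p = 0.161) and Acot2, a mitochondrial acyl-CoA thioesterase (-0.33, adjusted p = 0.0737), did not pass.

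Of the 12 mitochondrial beta-oxidation genes, 3 were higher and none lower, and 9 of the 12 differences were above zero. All 3 were acyl-CoA dehydrogenases, which open the cycle on chains of different length. Acadvl, for very long chains, had levels of 4.62, 5.29 and 5.56 on PB against 4.39, 4.57 and 4.98 on control diet, a difference of 0.63 ± 0.14 (adjusted p = 0.00213). Acads, for short chains, had levels of 6.67, 7.07 and 7.52 on PB against 6.38, 6.55 and 6.98 on control diet, a difference of 0.50 ± 0.14 (adjusted p = 0.00975). For both, the PB median lay above the highest control. Acadl, for long chains, had levels of 7.26, 7.53 and 7.80 on PB against 6.94, 7.21 and 7.66 on control diet, a difference of 0.34 ± 0.132 (adjusted p = 0.0491). Acadm, the fourth of these dehydrogenases, which acts on medium chains, did not pass (-0.09, adjusted p = 0.545). No electron transfer gene passed, and Etfa had a difference of 0.36 (adjusted p = 0.0784).

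Of the 7 peroxisomal genes, 3 were higher and none lower, and all 7 differences lay above zero, with a median of 0.423. Acaa1b, a peroxisomal ketoacyl-CoA thiolase, had levels of 7.21, 7.55 and 8.08 on PB against 6.21, 6.56 and 6.68 on control diet. Every PB array exceeded every control, by a difference of 1.10 ± 0.135 (adjusted p = 3.5e-05). Its near-identical paralog Acaa1a had levels of 7.98, 8.32 and 8.71 on PB against 7.67, 7.78 and 8.27 on control diet, a difference of 0.42 ± 0.133 (adjusted p = 0.0184). The second probes of Acaa1a and Acaa1b gave 0.84 (adjusted p = 0.000145) and 1.09 (adjusted p = 0.0185), and how far each probe reads the other paralog is uncertain. Ehhadh, the bifunctional enzyme of the middle of the cycle, had levels of 2.15, 2.60 and 3.14 on PB against 1.80, 2.24 and 2.44 on control diet, a difference of 0.44 ± 0.157 (adjusted p = 0.0327). Decr2, a dienoyl-CoA reductase, did not pass (0.74 ± 0.505, adjusted p = 0.257).

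The ketone body enzymes and the fasting-responsive regulators did not pass in chimeric mice. Bdh1, the hydroxybutyrate dehydrogenase, differed by -0.20 (adjusted p = 0.243) and Acat1, the mitochondrial acetoacetyl-CoA thiolase, by 0.04. Fgf21, a hormone the liver secretes in fasting, had levels of -5.56, -3.68 and -3.17 on PB against -4.64, -3.13 and -1.27 on control diet, and its groups overlapped widely (-0.86 ± 0.506, adjusted p = 0.186). Pdk4, a kinase that shuts off pyruvate dehydrogenase, differed by 0.24 (adjusted p = 0.491).

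**Figure D2:**
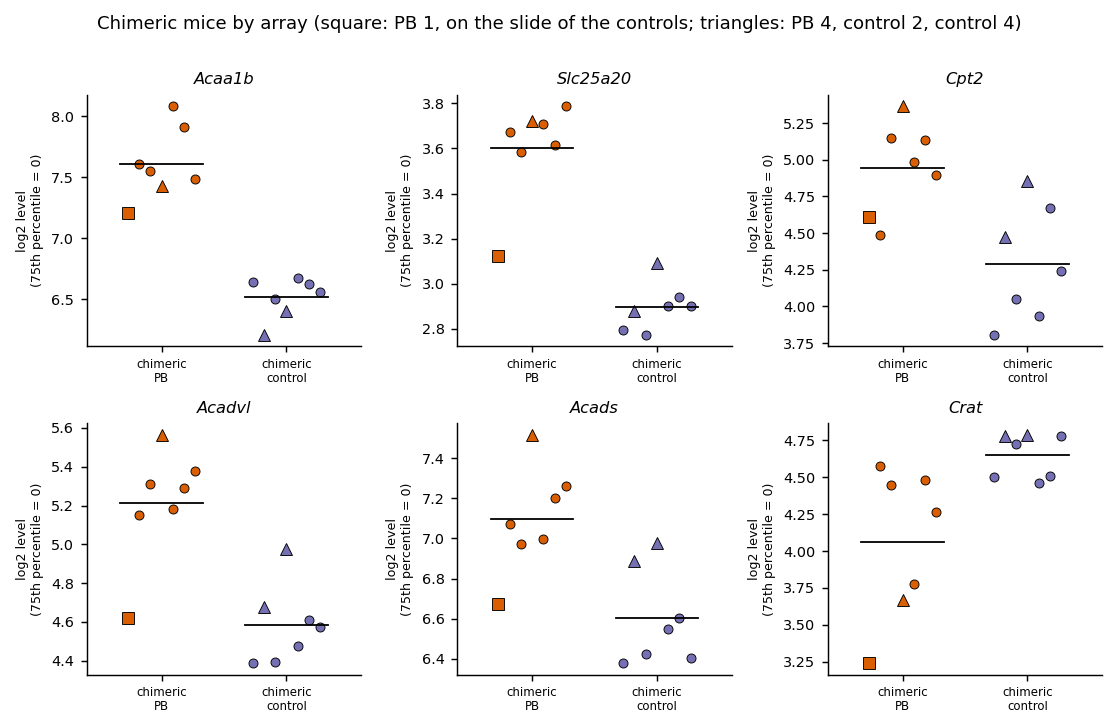
Level of 6 genes (log2, relative to the 75th percentile of the array) on each chimeric array, PB left of control diet; the square marks PB 1, which shares the slide of the controls, and triangles mark the 3 arrays that stand apart. The PB and control points separate fully for Acaa1b and Slc25a20 and overlap for Cpt2, Acadvl, Acads and Crat.

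These differences were taken mostly between slides. With slide as a block, which leaves PB 1 against the 7 controls as the within-slide contrast, 1 gene passed, Crat at -1.41 (adjusted p = 0.0373), and 1.09% of all genes did. That contrast sets 1 PB array against the controls, so its spread comes from the controls and the other PB arrays, and not from PB 1. In the fit with no block, the call of Crat was lost without the 3 arrays that stand apart. It was also lost there with median centring (-0.30, adjusted p = 0.249). The members' median was -0.113 with slide as a block, against -0.0374 over all genes, below zero where it was above zero without the block. In the slide block Acaa1b was at 0.69 (adjusted p = 0.279), Slc25a20 at 0.23 and Cpt2 at 0.32, Acadvl at 0.0359 and Acads at 0.0707, and Acsl3 changed sign at -0.0520 (adjusted p = 0.988). Ehhadh stood at 0.225, Acaa1a at 0.0851 and Acadl at 0.0471. The level of PB 1 lay within the range of the controls for 26 of the 39 genes (66.7%, against 65.5% of all genes), above it for Slc25a20 and Acaa1b, and below it for 11. For Cyp2b2, by contrast, PB 1 lay above every control.

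Without PB 4, control 2 and control 4, 10 genes were higher and none lower. The members' median was then 0.0331 against 0.0375 over all genes. Of the 10 genes that had passed 8 did so again, Crat (-0.46, adjusted p = 0.108) and Ehhadh (0.35, adjusted p = 0.119) did not, and Eci2 and Hsd17b4 passed in addition. On those 3 arrays 6 genes had the lowest levels of their diet group, or 15.4% of the 39 against 13.8% of all genes. They were Hadha (at the probe used), Hadhb, Acaa2, Eci1, Decr2 and Acat1. A further 11 had their highest levels there, among them Acadvl, Acadl, Acads and Acaa1a, or 28.2% against 25.9% of all genes. Decr2 stood at -0.61 on PB 4, and at -0.93 and -1.18 on controls 2 and 4, against medians of 1.68 on PB and 1.24 on control diet. Leaving out 1 array at a time, the call of Acadl was lost with 11 of the 14 arrays, all but PB 1, control 2 and control 4 (adjusted p 0.0527 to 0.102), and that of Ehhadh without PB 3, 5 or 6 or control 2, 4 or 6 (0.0520 to 0.0738). The other 8 calls held in all 14 such fits. Of the cell type markers tested, 3 of 6 for macrophages and 2 of 2 for lymphocytes were lower on PB. So were 1 of 3 endothelial, 3 of 6 stellate cell and 3 of 14 hepatocyte markers. Higher were 1 hepatocyte, 1 stellate cell and 1 cholangiocyte marker. Over all genes 23.4% were lower and 19.3% higher. Marker values with slide as a block are not given here. The part of the slide, the arrays that stand apart and the other cells in the PB differences was not tested beyond these values.

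**Figure D3:**
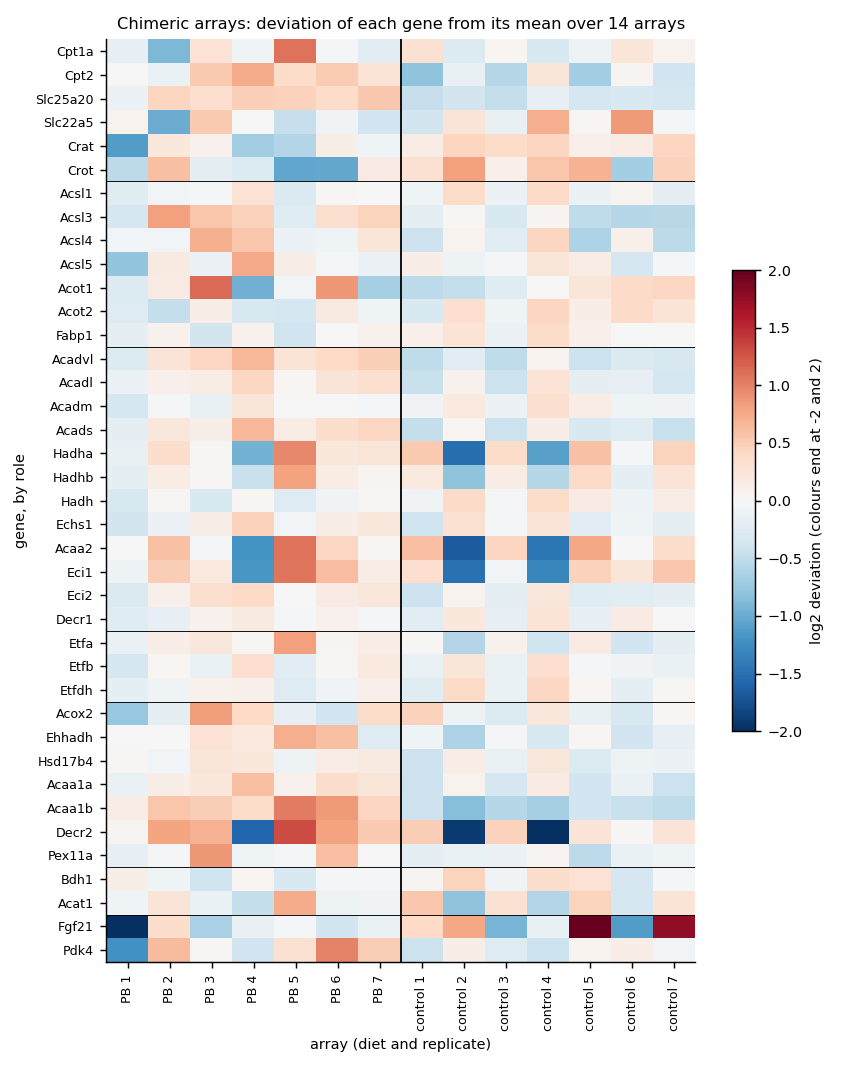
Deviation of each gene (log2) from its own mean over the 14 chimeric arrays, with genes in rows by role and arrays in columns, PB left of control diet; colours end at 2 log2 units on either side. Hadha (at the probe used), Acaa2, Eci1 and Decr2 are low together on PB 4, control 2 and control 4.

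In CAR KO rats no gene passed in either direction by limma's test, while 13 of the 39 had an unadjusted p under 0.05. Over all genes 0.205% passed, 0.0513% higher and 0.154% lower. Of the 39 differences 31 were below zero, with a median of -0.102 against -0.0220 over all genes, of which 55.5% were below zero. In the mitochondrial cycle 11 of 12 differences were below zero. Cpt1a had levels of 0.62, 0.91, 0.86 and 0.17 on PB, against 1.67, 1.97, 1.19 and 1.12 on control diet. Its 4 PB arrays lay below its 4 control arrays, and the difference of -0.85 ± 0.27 did not pass (adjusted p = 0.159). Acaa2, the thiolase of the mitochondrial cycle, differed by -0.30 (adjusted p = 0.143), Eci1, an enoyl-CoA isomerase, by -0.46 (adjusted p = 0.151), and Acsl5, a mitochondrial long-chain acyl-CoA synthetase, by 0.62 (adjusted p = 0.159). Fgf21 had levels of -2.63, -1.51, -2.41 and -2.36 on PB against -1.61, -1.75, -2.52 and -3.01 on control diet, and the groups overlapped with a difference of -0.00 ± 0.329. Arrays of the groups did not overlap for 2 genes that were higher on PB and 7 that were lower, where 3.71% and 7.1% of all genes did so.

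In SD rats, 1 of the 39 genes was higher on PB and 4 were lower: the entry enzyme Cpt1a, the hormone Fgf21 and 2 enzymes of the mitochondrial cycle fell, and the synthetase Acsl3 rose. Over all genes 4.3% passed, 2.5% higher and 1.8% lower. Of the 39 differences 34 were below zero, against 54.5% of all genes, with a median of -0.158 against -0.0207, and 13 genes had an unadjusted p under 0.05. Arrays of the groups did not overlap for 2 genes that were higher and 7 that were lower, where 5.9% and 5.76% of all genes did so. The genes that passed are among these.

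Cpt1a had levels of 0.66, 0.67, 0.91 and 0.08 on PB, against 1.52, 1.58, 1.53 and 2.58 on control diet. Control 4 was the highest array, and the other controls also lay above all 4 PB arrays. The difference was -1.23 ± 0.269 (adjusted p = 0.0204), and it held without any 1 of the 8 arrays, at -1.34 to -0.97. The call was lost with the replicate number as a block (adjusted p = 0.0730) and with the SD groups fitted alone (0.0824). No other gene of the shuttle passed; Crot differed by -0.33 (adjusted p = 0.336) and Crat by -0.27 (adjusted p = 0.596).

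Acsl3 had levels of 0.41, 0.31, 0.67 and 0.65 on PB, against 0.05, -0.29, -0.25 and 0.28 on control diet. The groups did not overlap, and the lowest PB array was close to the highest control. The difference was 0.56 ± 0.137 (adjusted p = 0.0354), and the other 6 genes for activation, hydrolysis and binding were below zero without passing. Acot1, a cytosolic thioesterase, differed by -0.51 (adjusted p = 0.0627).

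In the mitochondrial cycle, Acadm had levels of 5.44, 5.58, 5.62 and 5.72 on PB, against 5.85, 6.14, 5.81 and 6.0003 on control diet. All 4 PB arrays were lower, by a difference of -0.36 ± 0.0937 (adjusted p = 0.0437). Hadh, the hydroxyacyl-CoA dehydrogenase for shorter chains, had levels of 6.82, 6.94, 6.78 and 6.97 on PB, against 7.07, 7.11, 7.06 and 7.10 on control diet. The difference was small, -0.21 ± 0.0539 (adjusted p = 0.0443), and no array overlapped. Of the 12 genes of this cycle 11 were below zero, with Acadl (-0.28, adjusted p = 0.0603) and Hadha, a subunit of the trifunctional protein (-0.25, adjusted p = 0.115), among those that did not pass.

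The 7 peroxisomal genes did not pass in SD rats and had a median of -0.0417; Acaa1b differed by 0.01 (adjusted p = 0.977) and Pex11a, a peroxisome division factor, by -0.39 (adjusted p = 0.33). Bdh1 differed by -0.39 (adjusted p = 0.417). Fgf21 had levels of -4.10, -3.84, -3.60 and -4.17 on PB, against -2.27, -2.06, -3.04 and -3.01 on control diet. Every PB array was lower, and the difference was -1.33 ± 0.328 (adjusted p = 0.0358). Pdk4 did not pass (-0.37, adjusted p = 0.438).

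**Figure D4:**
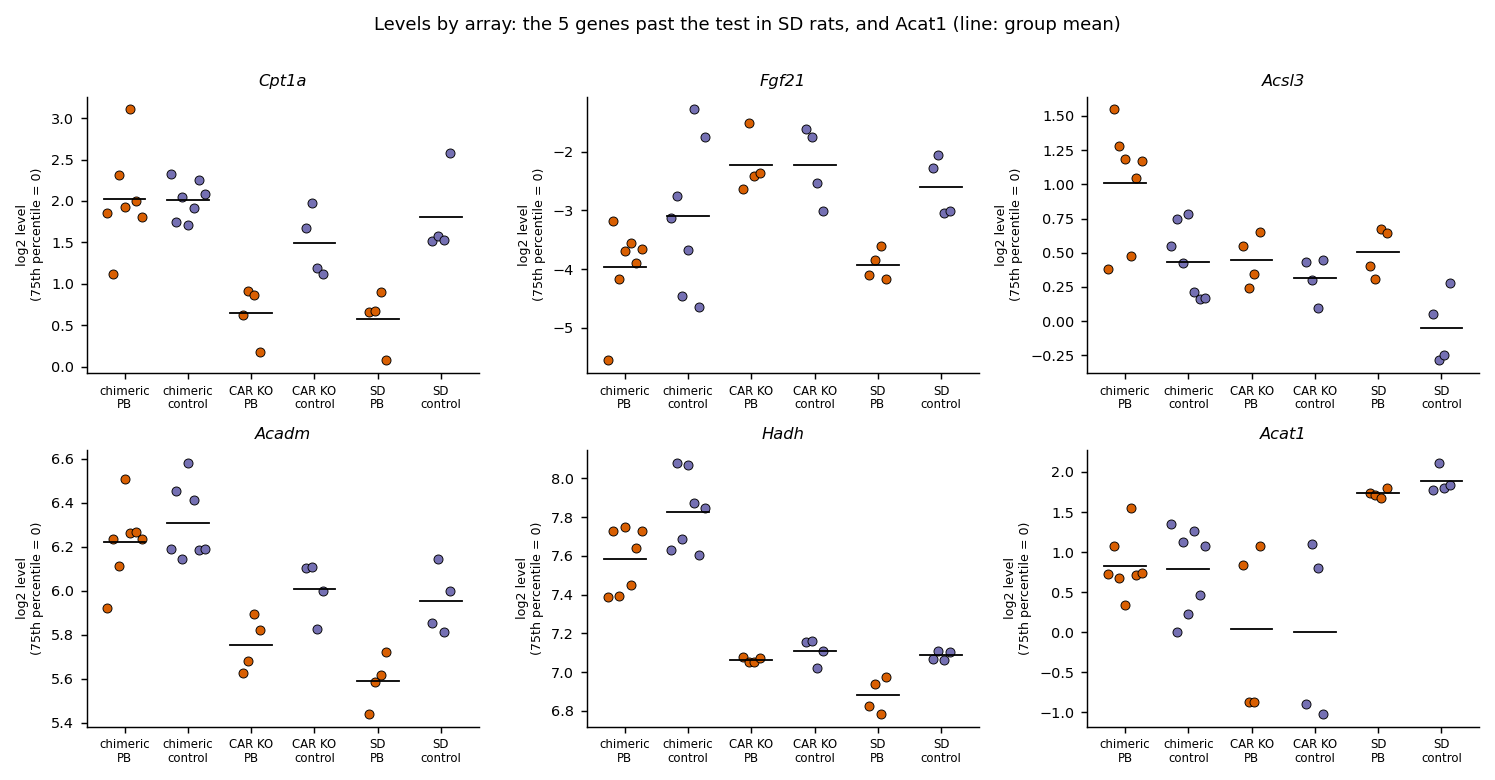
Level of 6 genes (log2, relative to the 75th percentile of the array) on each array, PB left of control diet, in chimeric mice, CAR KO rats and SD rats. Bars mark the group means. In SD rats the PB and control points of Cpt1a, Fgf21, Acsl3, Acadm and Hadh do not overlap, and in CAR KO rats Acat1 falls into a low and a high set of 4 arrays on both diets.

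The other 4 calls in SD rats were lost when single arrays were left out. That of Acsl3 was lost without PB 1, 3 or 4 or control 1, 2 or 3 (adjusted p 0.0532 to 0.0976), and that of Fgf21 without any 1 PB array or control 1 or 2 (0.0560 to 0.0859). That of Acadm was lost without PB 1, 2 or 3 or control 1, 2 or 4 (0.0568 to 0.108), and that of Hadh without PB 1, 2 or 3 or any 1 control (0.0589 to 0.12). Fitted on the SD arrays alone, no gene passed. With normexp background correction Fgf21 differed by -0.57 (adjusted p = 0.111), and with all 30 arrays in the fit its adjusted p was 0.441. Of the hepatocyte markers 2 of 14 were lower on PB in SD rats, where 1.8% of all genes were, and none was higher. No marker of another cell type passed. The part of these markers in the result was not tested.

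The PB difference in CAR KO rats minus that in SD rats, which share no arrays, passed for none of the 39 genes by limma's test, while 8 had an unadjusted p under 0.05 and 0.533% of all genes passed, 0.107% above zero and 0.427% below. For Cpt1a it was 0.38 ± 0.383, with a 95% interval of -0.44 to 1.20 (adjusted p = 0.717). The PB differences of Cpt1a in CAR KO and SD rats were thus not told apart by this test. For Fgf21 it was 1.33 ± 0.465, with an interval of 0.33 to 2.33 (adjusted p = 0.25), for Acsl5 0.80 ± 0.28 (adjusted p = 0.251), and for Acsl3 -0.43 (adjusted p = 0.362). Decr2 had the lowest adjusted p among these, at -0.35 ± 0.109 (adjusted p = 0.181).

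The PB difference in chimeric mice minus that in SD rats passed for 7 genes, all above zero, where 18.9% of all genes passed, 6.29% above and 12.6% below. In the carnitine shuttle these were Cpt1a (1.23 ± 0.37, adjusted p = 0.0194), Slc25a20 (0.78 ± 0.137, adjusted p = 0.000448) and Cpt2 (0.72 ± 0.236, adjusted p = 0.0316). In the mitochondrial cycle they were Acadvl (0.81 ± 0.178, adjusted p = 0.00233), Acadl (0.62 ± 0.168, adjusted p = 0.0106) and Acads (0.55 ± 0.175, adjusted p = 0.0273), and in the peroxisome Acaa1b (1.09 ± 0.187, adjusted p = 0.000373). For Cpt1a the PB difference was 0.01 in chimeric mice and -1.23 in SD rats. The other 6 genes had passed as higher on PB in chimeric mice and had not passed in SD rats, where Acadl stood at -0.28 and the PB differences of Slc25a20, Cpt2, Acadvl, Acads and Acaa1b lay between -0.18 and 0.01. Acsl3 differed by 0.02 between the models, with an interval of -0.50 to 0.54. Of the 39 values 34 were above zero, with a median of 0.254 against 0.0785 over all genes.

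With slide as a block none of the 7 passed, and the values were 1.07 for Cpt1a (adjusted p = 0.628), 0.30 for Slc25a20 (0.616), 0.38 for Cpt2 (0.905), 0.21 for Acadvl (0.935), 0.33 for Acadl (0.828), 0.13 for Acads (0.991) and 0.68 for Acaa1b (0.418), each p adjusted. Without the 3 chimeric arrays that stand apart all 7 passed, together with Eci2, Hsd17b4 and Acaa1a. The call of Cpt1a was lost without SD PB 4 (adjusted p = 0.0576) or SD control 4 (0.0659), that of Cpt2 without SD PB 1, 2 or 4 or SD control 2 or 4 (0.0520 to 0.0711), and that of Acads without SD PB 1 or 3 or SD control 2 or 4 (0.0528 to 0.0579).

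CAR KO rats differed from SD rats on the same diet in 9 of the 39 genes on control diet, 2 higher and 7 lower, and in 19 on PB, 9 higher and 10 lower. Over all genes 34.1% passed on control diet (14.4% higher, 19.7% lower) and 42.1% on PB (16.9% higher, 25.1% lower). The members' medians were -0.00661 on control diet and 0.0226 on PB, against -0.0776 and -0.0592 over all genes. On PB the arrays did not overlap for 9 genes that were higher and 11 that were lower in CAR KO rats, where 15.8% and 23.1% of all genes did so, and on control diet for 1 and 7, where 14.4% and 19.9% of all genes did so. After quantile normalization the split was 4 higher and 4 lower on control diet and 12 higher and 7 lower on PB. Of 14 hepatocyte markers 5 were lower in CAR KO rats on control diet and 1 on PB, and none was higher. Of 8 macrophage markers 2 were lower on PB and 1 on control diet, and 2 of 3 erythroid markers were higher on PB; the part of these markers in the differences was not tested.

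The carnitine importer Slc22a5 had levels of -2.76, -2.27, -2.87 and -2.81 in CAR KO control livers, against -3.32, -3.32, -3.62 and -3.28 in SD control livers. The groups did not overlap and differed by 0.71 ± 0.179 (adjusted p = 0.00762), a call that ended with normexp background correction (0.21, adjusted p = 0.0772). Slc25a20 had levels of 2.48, 2.45, 2.36 and 2.31 in CAR KO control livers, against 2.84, 2.92, 2.74 and 3.03 in SD control livers, a difference of -0.48 ± 0.0708 (adjusted p = 0.000151). The groups did not overlap, and on PB the difference was again -0.48. Crot had levels of 4.83, 4.97, 4.65 and 4.74 in CAR KO PB livers, against 3.82, 3.17, 3.49 and 4.12 in SD PB livers. All 4 CAR KO arrays were higher, by 1.15 ± 0.185 (adjusted p = 0.000231).

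Acot1 had levels of -3.25, -3.43, -3.34 and -3.76 in CAR KO control livers, against -3.90, -4.005, -4.27 and -3.52 in SD control livers. The groups overlapped through SD control 4, the difference was 0.48 ± 0.146 (adjusted p = 0.0212), and with normexp it was 0.0246 (adjusted p = 0.801); the call was also lost without CAR KO control 1 or 3 or SD control 3. Acsl5 had levels of 4.29, 4.25, 3.82 and 4.13 in CAR KO PB livers, against 2.92, 2.66, 3.15 and 3.13 in SD PB livers. The groups did not overlap, and the difference was 1.16 ± 0.197 (adjusted p = 0.000358).

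Acadvl had levels of 3.68, 3.75, 3.64 and 3.62 in CAR KO control livers, against 4.02, 4.05, 4.11 and 4.15 in SD control livers, without overlap (-0.41 ± 0.0779, adjusted p = 0.00114). Of the 12 genes of the mitochondrial cycle 3 were lower in CAR KO rats on control diet and none higher, and 4 were lower and 1 higher on PB. Decr2 had levels of 0.48, 0.28, 0.42 and 0.55 in CAR KO PB livers, against 1.13, 1.35, 1.23 and 1.35 in SD PB livers. It was lower on every CAR KO array, by -0.83 ± 0.0763 on PB (adjusted p = 1.46e-06) and by -0.48 ± 0.0769 on control diet (adjusted p = 0.000301), where its levels were 0.65, 0.51, 0.64 and 0.76 in CAR KO livers against 1.04, 1.08, 1.14 and 1.22 in SD livers.

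Acat1 was lower in CAR KO rats by -1.88 ± 0.506 on control diet (adjusted p = 0.0106) and by -1.69 ± 0.503 on PB (adjusted p = 0.0146), and its CAR KO arrays formed a low and a high set. Its levels were 0.84, -0.88, -0.88 and 1.07 in CAR KO PB livers, and 1.73, 1.72, 1.68 and 1.80 in SD PB livers. They were -0.89, 1.10, 0.81 and -1.02 in CAR KO control livers, and 1.78, 2.11, 1.80 and 1.84 in SD control livers. Each diet held 2 arrays of either set, with a gap of 1.68 between the sets, and both sets lay below all SD arrays. Bdh1 was higher in CAR KO PB livers, at 3.76, 4.31, 3.93 and 3.36, against 3.13, 3.41, 2.93 and 3.18 in SD PB livers; CAR KO PB 4 lay below SD PB 2, and the difference was 0.68 ± 0.252 (adjusted p = 0.0433). This call was lost without CAR KO PB 1, 2 or 3 or SD PB 1, 3 or 4 (adjusted p 0.0629 to 0.125). Fgf21 was higher in CAR KO PB livers than in SD PB livers by 1.70 ± 0.327 (adjusted p = 0.000936), and every CAR KO array lay above every SD array there.

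Chimeric livers differed from SD livers in 28 of the 39 genes on control diet, 23 higher and 5 lower, and in 29 on PB, 27 higher and 2 lower. Of the 5, Hadha passed at 1 of its 2 probes only. Over all genes 74.6% passed on control diet (38.7% higher, 35.9% lower) and 72.7% on PB (38.8% higher, 33.9% lower). The members' medians were 0.511 on control diet and 0.906 on PB, against 0.0355 and 0.0107 over all genes. On PB the arrays did not overlap for 24 genes that were higher and 1 that was lower in chimeric livers, where 30.8% and 23.4% of all genes did so, and on control diet for 18 and 3, where 32.6% and 28.3% of all genes did so. The split on control diet was 14 higher and 10 lower after quantile normalization, with a median of 0.0274, and 29 higher and none lower after centring each array on its median, which moved the median of all genes by 0.402. On PB the split was 21 higher and 4 lower after quantile normalization, with a median of 0.391, and 33 and none after median centring, with a median of 1.58 and a shift of 0.678 over all genes. With a block for the second chimeric slide, the median on PB was 0.587. That fit leaves chimeric PB 1 against the SD PB arrays, which lay on another slide, so slide and model stay together. After quantile normalization Acadvl, Acadm and Acaa1a changed sign on control diet, and Acadm and Hadh on PB. Markers of other cells differed as well: 7 of 8 macrophage markers were lower in chimeric livers on either diet, and of 14 hepatocyte markers 3 were higher and 5 lower on either diet; their part in these differences was not tested.

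All 7 role groups but the ketone body enzymes and the fasting-responsive regulators had more higher than lower genes on both diets. On PB 5 of 6 shuttle genes, 6 of 7 activation genes, 8 of 12 genes of the mitochondrial cycle and 5 of 7 peroxisomal genes were higher in chimeric livers, and Acaa2 was the 1 lower gene of these groups. Of the 5 peroxisomal genes, Acaa1b passed at 1 of its 2 probes only. Cpt2 had levels of 4.49, 4.98 and 5.36 (lowest, median and highest) in chimeric PB livers, against 2.78, 2.71, 2.90 and 2.71 in SD PB livers. The groups lay far apart, with a difference of 2.17 ± 0.166 (adjusted p = 9.3e-12) on PB and 1.45 ± 0.167 (adjusted p = 1.89e-08) on control diet. Acadl had levels of 7.26, 7.53 and 7.80 in chimeric PB livers, against 5.96, 5.94, 6.13 and 6.13 in SD PB livers, a difference of 1.51 ± 0.118 (adjusted p = 1.42e-11). Acads had levels of 6.67, 7.07 and 7.52 in chimeric PB livers, against 5.51, 5.70, 5.50 and 5.65 in SD PB livers, a difference of 1.51 ± 0.123 (adjusted p = 3.28e-11). Both were higher on every chimeric array. Cpt1a, with levels of 1.12, 1.93 and 3.11 in chimeric PB livers against 0.66, 0.67, 0.91 and 0.08 in SD PB livers, differed by 1.44 ± 0.261 on PB (adjusted p = 1.96e-05) and by 0.21 on control diet (adjusted p = 0.476).

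Decr1, the mitochondrial dienoyl-CoA reductase, had levels of 5.72, 5.95 and 6.15 in chimeric PB livers, against 4.37, 4.58, 4.35 and 4.73 in SD PB livers, a difference of 1.45 ± 0.117 (adjusted p = 2.86e-11) without overlap. On control diet it differed by 1.26 ± 0.118 (adjusted p = 4.75e-10). Crat had levels of 4.46, 4.72 and 4.79 in chimeric control livers, against 2.59, 3.13, 2.74 and 3.74 in SD control livers, a difference of 1.60 ± 0.23 (adjusted p = 7.43e-07). Slc22a5 had levels of -2.41, -1.997 and -1.19 in chimeric control livers, against -3.32, -3.32, -3.62 and -3.28 in SD control livers, a difference of 1.53 ± 0.231 (adjusted p = 1.54e-06). Both were higher on every chimeric array. Acot2 had levels of 2.57, 2.79 and 3.21 in chimeric PB livers, against 1.31, 1.14, 1.10 and 0.99 in SD PB livers. It was higher by 1.74 ± 0.159 on PB and 1.69 ± 0.159 on control diet at its brighter probe, and by 0.58 (adjusted p = 0.0344) and 0.16 (adjusted p = 0.572) at its second probe, so the size depends on the probe; Acot1 and Acot2 are close paralogs and cross-reading is uncertain.

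Acaa2 was lower in chimeric livers, with levels of 2.98, 4.21 and 5.26 on PB, against 5.14, 5.33, 5.17 and 5.37 in SD PB livers (-0.94, adjusted p = 0.0241). On control diet its levels were 2.52, 4.53 and 4.95 in chimeric livers, against 5.24, 5.15, 5.01 and 5.29 in SD livers (-1.13 ± 0.37, adjusted p = 0.00783), and without the 3 chimeric arrays that stand apart it differed by -0.56 (adjusted p = 0.00582). With each array centred on its median the control diet value was -0.73 (adjusted p = 0.0573). The PB call was lost without chimeric PB 4, SD PB 2 or SD PB 4, and with median centring (-0.27, adjusted p = 0.492). With a block for the second chimeric slide, which leaves chimeric PB 1 against the SD PB arrays, the PB value of Acaa2 was -1.07. Acat1, named as the other gene that was lower on PB after its values were seen, differed by -0.90 on PB (adjusted p = 0.036) and by -1.09 on control diet (adjusted p = 0.012). Its control diet call was lost with median centring (-0.69, adjusted p = 0.0898) and without the 3 arrays that stand apart (-0.83, adjusted p = 0.0657). Its PB call was lost with median centring (-0.22, adjusted p = 0.593), with slide as a block (adjusted p = 0.227), without the filter on dim probes (0.0548), without those 3 arrays (0.0564), and without chimeric PB 3, 4 or 6 or any 1 SD PB array.

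**Figure D5:**
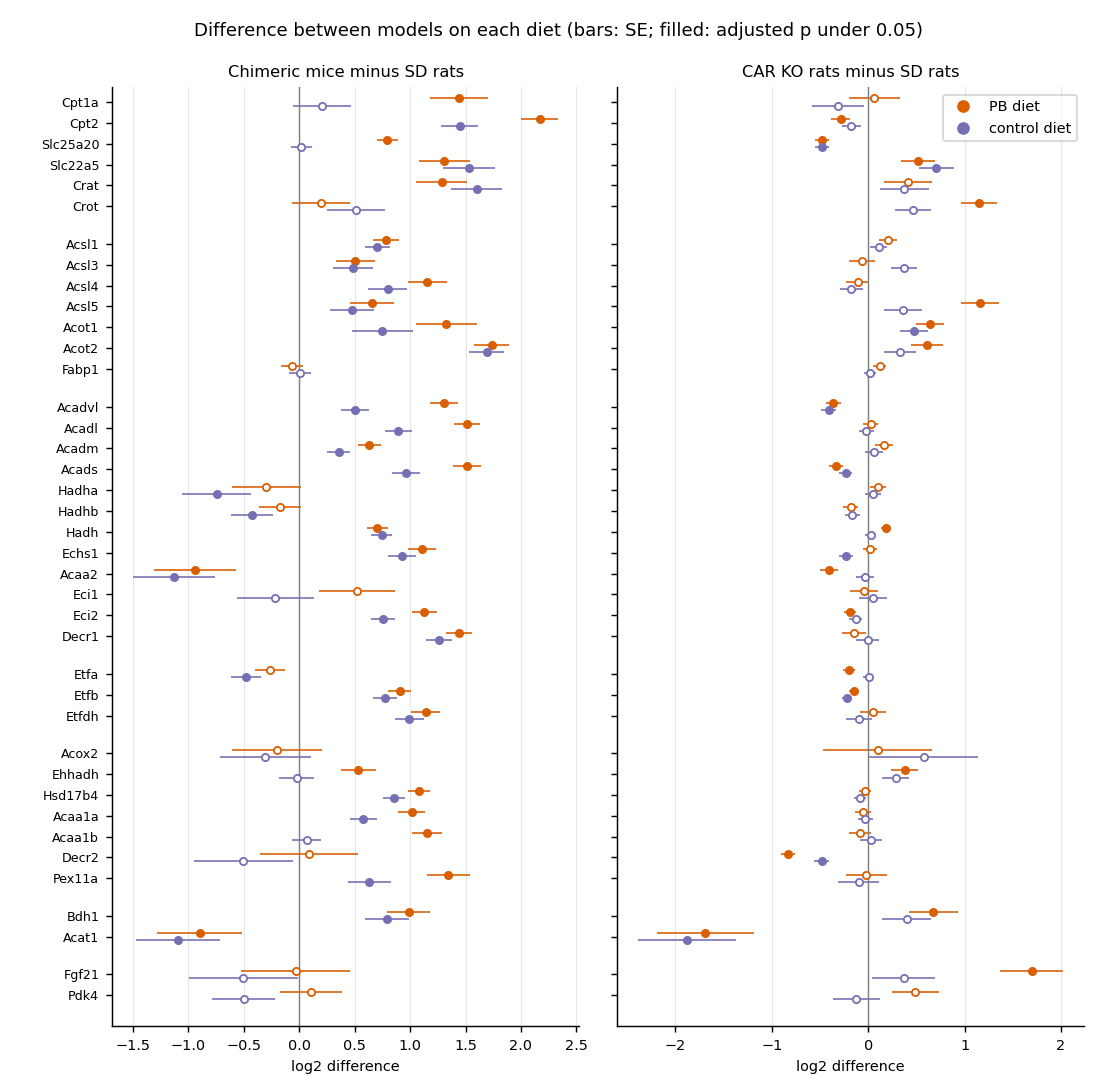
Difference between models on the same diet (log2, horizontal axis) for each of the 39 genes, chimeric mice minus SD rats in one panel and CAR KO minus SD rats in the other; orange is the PB diet, purple the control diet, filled points passed the test and bars are standard errors. Most chimeric values lie to the right of zero, with Cpt2 at 2.17 on PB, while CAR KO values lie on both sides.

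Second probes gave another sign or call in several comparisons, with p adjusted here over all probes tested. For Hadha the second probe and the probe used, which was brighter over the rat arrays only, gave -0.20 and 0.20 for the PB difference in chimeric mice. The SE was 0.0981 at the second probe and 0.352 at the probe used. Between chimeric and SD livers they gave 0.09 and -0.30 on PB and -0.06 and -0.75 on control diet, and between CAR KO and SD livers -0.14 and 0.10 on PB and -0.24 and 0.05 on control diet. No direction is therefore read for Hadha in these comparisons, although it is counted among the genes lower in chimeric livers on control diet. That call was made at the probe used and not at the second probe (adjusted p = 0.0336 and 0.635). For Acot2 they gave 0.16 and -0.33 for PB in chimeric mice, -0.13 and 0.61 between CAR KO and SD livers on PB (adjusted p = 0.59 and 0.00891) and -0.07 and 0.33 on control diet. For Acaa1b they gave 0.55 and 1.15 between chimeric and SD livers on PB (adjusted p = 0.11 and 1.55e-08). On control diet they gave -0.55 and 0.07. For the PB difference in chimeric mice minus that in SD rats they gave 1.10 and 1.09, with the second probe not passing (adjusted p = 0.0812). For Acaa1a this last value passed at the second probe (0.82, adjusted p = 0.0015) and not at the brighter one (0.43, adjusted p = 0.0799).

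Of 90 further genes of the pathway 79 were on the array. In chimeric mice 22 of 70 tested were higher on PB and 4 lower, including 8 higher and none lower of 21 peroxisomal genes, against the 19.3% and 23.4% of all genes given before. Abcd2, a peroxisomal importer of very long chains, was well above background on 7 of 7 PB arrays and 0 of 7 control arrays. It entered the test through the PB group alone and is counted among the 22. Only a bound is given for it, at least 4.53-fold higher on PB. Fabp2, a fatty acid binding protein, was higher by 1.76 ± 0.221 (adjusted p = 4.12e-05), Acss2, the cytosolic acetyl-CoA synthetase, by 1.31 ± 0.202 (adjusted p = 0.000152) and Mgll, a monoglyceride lipase, by 1.37 ± 0.466 (adjusted p = 0.0275). Ppara itself, named after its values were seen, differed by 0.61 ± 0.25 (adjusted p = 0.0602). Like those of the 39 genes, these differences were taken mostly between slides. Their values with slide as a block are not given here, so the part of the slide in them was not tested.

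In CAR KO rats none of 75 further genes passed by limma's test and 10 had an unadjusted p under 0.05, while 0.205% of all genes passed. In SD rats 3 of 75 were higher and 5 lower, where 2.5% and 1.8% of all genes were: Acss2 was higher by 0.85 ± 0.188 (adjusted p = 0.0208) and Acad9, an acyl-CoA dehydrogenase known for complex I assembly, by 0.60 ± 0.0633 (adjusted p = 0.000103). The lipid droplet coat protein Plin2 was lower by -0.59 ± 0.147 (adjusted p = 0.0389) and the racemase Amacr by -0.56 ± 0.141 (adjusted p = 0.0389). The PB difference in CAR KO minus that in SD rats passed for Acad9 (-0.54, adjusted p = 0.0146) alone of 75, where 0.533% of all genes did. The PB difference in chimeric mice minus that in SD rats passed for 10 of 76, all above zero, 6 of them among the 21 peroxisomal genes. Over all genes 6.29% passed above zero and 12.6% below. The chimeric differences were again taken mostly between slides.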

How the data were processed

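Cy3-labelled liver RNA was hybridised to 1-colour Agilent arrays of 62976 spots. The deposited scanner files hold background-subtracted spot intensity from Agilent Feature Extraction 10.7.3.1, per the file headers; the deposited series table holds log2 values that correlate at 1 with log2 of that intensity on each array, with its scale not stated. From the processed signal, log2 was taken and each array's 75th percentile subtracted; 4259 control spots were left out and no other spot was saturated. Of the probes, 18004 matched 15170 symbols by transcript accession in the RefSeq gene table; 2599 symbols had several probes, and the brightest over the 16 rat arrays was used. Tests were run on genes with a probe that the scanner software marked as well above background on at least 75% of the arrays in 1 or more of the groups compared. limma 3.58.1 (lmFit, eBayes; R 4.3.3) fitted group means over the 16 rat arrays, the 14 chimeric arrays, or all 30 for chimeric against SD, with Benjamini-Hochberg adjustment over all genes tested.

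The members and lists were chosen with earlier results of these data known. Full values are given for genes that passed in a PB difference or a difference of PB differences and for up to 6 genes of largest change per comparison of models; others are given by counts, with up to 2 per role group that did not pass. Alternatives were normexp background correction with an offset of 50 (on the median spot signal, since the mean signal and its background were not in the columns used here), quantile and median scaling, no filter, other sets of arrays, replicate, slide and row blocks, and each array left out. The fits within the slide of both diets, with array row as a block and without the 3 chimeric arrays that stand apart were chosen after seeing the data. In a test on simulated data, 88% of genes given a log2 change of 1 were recovered for SD rats and 75% for chimeric mice. For the PB difference in CAR KO rats minus that in SD rats it was 71%. For that in chimeric mice minus that in SD rats it was 70%. At a log2 change of 2, 95% were recovered for SD rats and for chimeric mice. Changes smaller than 1 were not simulated. The simulated arrays had independent noise, with no slide difference and no arrays that stand apart, so these shares do not cover those features of the chimeric arrays. The number of arrays limits the precision.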

Additional observations from a re-analysis of the deposited data

Results flagged for a closer look

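Of 234 gene and group combinations, 11 had an array whose gap to the nearest other array was large against the range of the group, where chance gives about 1 in 20. Cpt1a was at 2.58 on SD control 4, against 1.52 to 1.58 on the other SD controls. Slc25a20 was at 3.13 and Fgf21 at -5.56 on chimeric PB 1, the PB array on the slide of the controls, against 3.59 to 3.79 and -4.18 to -3.17 on the other PB arrays. Etfa was at 2.77 on chimeric PB 5 (others 1.82 to 2.18), and Pex11a at 3.08 on chimeric control 5 (others 3.43 to 3.67). In CAR KO rats, PB 3 had Acads at 5.37 (others 5.20 to 5.22) and Acaa2 at 4.99 (others 4.78 to 4.81), and control 2 had Hsd17b4 at 5.80 (others at 5.78). In SD rats, Hadha was at 2.16 on PB 4 (others 2.02 to 2.03), Slc22a5 at -3.62 on control 3 (others -3.32 to -3.28) and Acadl at 6.13 on control 2 (others 6.37 to 6.40).

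For 7 genes the PB difference in chimeric mice minus that in SD rats passed the interaction test of limma: Cpt1a (1.23), Cpt2 (0.72), Slc25a20 (0.78), Acadvl (0.81), Acadl (0.62), Acads (0.55) and Acaa1b (1.09). None passed with slide as a block.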

How the results depend on the processing

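The count of genes that passed in SD rats was 5, and 0 with the SD groups fitted alone. It was 1 with all 30 arrays fitted (Cpt1a) and 1 with the replicate number as a block (Acsl3). With 1 array left out it was 1 to 4. In chimeric mice it was 10, and 16 with all 30 arrays fitted, 1 with slide as a block and 1 within the slide of both diets; Acsl3 changed sign under the last 2 (-0.0520), and the split was 9 higher and 4 lower with normexp, 8 and 5 with quantile scaling, and 14 and 0 with median centring, which moved the median of all genes by 0.281. For the PB difference in chimeric mice minus that in SD rats the count was 7, and 12 with median centring, 0 with slide as a block and 4 to 10 with 1 array left out. Between CAR KO and SD rats the counts fell to 2 on control diet and 7 on PB with all 30 arrays fitted. The cause of these shifts was not tested. No alternative gave a call for PB in CAR KO rats or for its difference from SD rats. Same-numbered arrays did not deviate together in every pair, with correlations of -0.26 to 0.80. The labels do not say whether the numbers pair the animals, and the main fits did not pair them. With the replicate block 14 genes passed in chimeric mice, where 3 of 7 arrays correlated best with their own number. Over the genes with full values, 958 values kept direction and call under the alternatives, 138 lost the call and 2 changed sign, both of Acsl3; in comparisons where their values are not given in full, calls that changed sign with the scaling are Etfb (CAR KO against SD, PB, normexp) and the 5 cases between chimeric and SD livers named above. A block for every slide could not be fitted where each slide held 1 group or 1 model. Between chimeric and SD livers on PB the block covered only the second chimeric slide.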
